A study of Mus musculus with 10 samples.

Results

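The genes described here encode the proteins of the mitochondrial ribosome. They were taken from the expression table as every gene whose symbol begins with Mrpl or Mrps followed by a digit, pseudogene copies excluded, which gave 76 of 12535 genes. Of these, 47 were Mrpl genes, named for the large subunit, and 29 were Mrps genes, named for the small subunit. Messenger RNA was measured by RNA-seq in macrophages sorted by flow cytometry as positive for CD45, CD11b and F4/80, the surface markers of leukocytes, myeloid cells and macrophages. Tumour-associated macrophages (TAM) of the cKO-labelled group (n = 3) came from C57/BL6 mice labelled Ahr fl/fl Lys M, in which Cre expressed from the lysozyme 2 locus should remove the floxed part of Ahr, the gene of the aryl hydrocarbon receptor. Control TAM (n = 3) came from C57/BL6 Ahr fl/fl mice, which carry the same floxed allele. Both TAM groups were taken from pancreatic tumours 14 days after cells of MT4, a single KPC organoid line of pancreatic adenocarcinoma, had been placed in the pancreas. Resident macrophages (n = 4) came from the pancreas of healthy C57/BL6 WT mice, which carry neither the floxed allele nor a tumour, so that genotype and tumour cannot be told apart in comparisons with them. Cre from this locus is also active in neutrophils.

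Mitochondrial ribosomes translate the few messenger RNAs encoded by mitochondrial DNA, all of which specify subunits of the respiratory chain and the ATP synthase. Their ribosomal RNAs are made inside the organelle, whereas all of their proteins are encoded in the nucleus, made in the cytosol and imported. The small subunit holds the decoding site and the large subunit joins amino acids and releases the growing chain at the inner membrane, and many of the proteins have no counterpart in bacteria. The mitochondrially encoded messenger and ribosomal RNAs were not analysed here.

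Recovered depth was 10312644 to 26454550 reads per library. All p-values given here reflect the spread between these libraries, which may be technical. All 10 macrophage markers examined were detected in every group. Ahr averaged 10.4 ± 0.785 FPKM in cKO-labelled TAM and 7.18 ± 0.309 FPKM in control TAM (SD, n = 3 each), a log2 change of 0.47 (limma, adjusted p = 0.000108). Because gene-level FPKM include exons that Cre leaves in place, this value is no check of the deletion. No loss of Ahr was seen at this level, and the libraries are called cKO-labelled. Lyz2, the gene into which this Cre is inserted, averaged 11460 ± 203 FPKM in cKO-labelled TAM and 19904 ± 85.1 FPKM in control TAM (log2 change -0.80, adjusted p = 9.39e-13), the direction the label implies. It was also lower in control TAM than in resident macrophages (28140 ± 477 FPKM), and neither of these groups is labelled with Cre. Markers of other cells were present. In control TAM, the summed level of 9 epithelial markers was 274 to 281 FPKM, against 9.15 to 10.6 FPKM in resident libraries. That of 8 neutrophil markers was 1245 to 1272 FPKM in control TAM, against 33.0 to 34.5 FPKM in resident libraries. The 16 acinar markers summed to 95.4 to 100 FPKM in control TAM, where Amy2a5 was at 0, against 31320 to 33295 FPKM in resident libraries. Of eosinophil markers, 4 were tested and all were higher in control TAM (1438 to 1475 FPKM in sum, against 134 to 141 FPKM in resident libraries, where Prg2 was at 0). A single gene carried most of some sums: Alox15, which macrophages can also express, averaged 1389 FPKM in control TAM and 137 FPKM in resident macrophages, and Retnlg of the neutrophil list averaged 1166 and 0.332 FPKM. All 5 tested B and plasma cell markers were lower (87.2 to 96.1 FPKM in control TAM, against 1354 to 1375 FPKM in resident libraries). Of 5 tested fibroblast markers, 4 were higher and 0 lower. Of 6 tested T and NK cell markers, 5 were higher and 1 lower. Over all genes tested, 39.0% were higher and 38.1% lower in control TAM. The part of these markers in the results below was not tested.

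All 76 members passed the filter on low values (1 FPKM or more in 3 or more libraries) and were tested. Their mean over the 10 libraries ran from 1.81 FPKM for Mrpl23 to 118 FPKM for Mrpl42, with a median of 22.3 FPKM in the large and 13.1 FPKM in the small subunit. The most abundant after Mrpl42 were Mrpl28, Mrps21 and Mrpl54, and the least abundant after Mrpl23 were Mrpl47, Mrps22 and Mrps5. Between 29 and 11514 reads stood behind a value of a member in a library. Replicates were close: the median coefficient of variation over the members was 4.68% in cKO-labelled TAM, 4.95% in control TAM and 6.56% in resident macrophages. Because the libraries carry no strand information, reads of overlapping genes cannot be told apart. The exons of 31 members overlapped another annotated gene, and for 10 members at least 20% of the exonic bases did. Mrpl23, Mrpl48 and Mrps36 have pseudogene copies that could share reads with them.

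Most mitochondrial ribosomal protein messages were more abundant in control TAM than in resident macrophages. Of the 47 large subunit members, 33 were higher, 3 were lower and 11 were not called. Of the 29 small subunit members, 15 were higher, 1 was lower and 13 were not called. Among all 11127 genes tested, 39.0% were higher and 38.1% were lower. The median log2 change, on the log2(FPKM + 1) scale as throughout, was 0.30 in the large and 0.23 in the small subunit, against 0.00 over all genes. The shifts were small in size. On this scale, 6 large and 4 small subunit members were both called and at least 1.5-fold higher, while 18.6% of all genes were. No member was 1.5-fold lower, as 15.7% of all genes were. By the fold of mean FPKM, which this scale understates, some more called members passed 1.5-fold, such as Mrpl13 (1.56). In bulk samples, fewer cells of a type and less RNA per cell cannot be told apart. Removing any 1 of resident replicate 1, resident replicate 3, control TAM replicate 1 or control TAM replicate 3 changed the count of lower large subunit members to 1. Without control TAM replicate 1, the 3 members lower above all lost their call, so that the 1 counted was another member. With each library scaled to a common FPKM total, 43 large and 26 small subunit members were higher and 0 and 1 lower. That scaling moved the median of all genes to 0.18, and the share of calls that were higher to 65.9%, against 50.6% as deposited. Relative to all genes, the median change was then 0.32 in the large and 0.25 in the small subunit, against 0.29 and 0.23 as deposited.

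**Figure D1:**
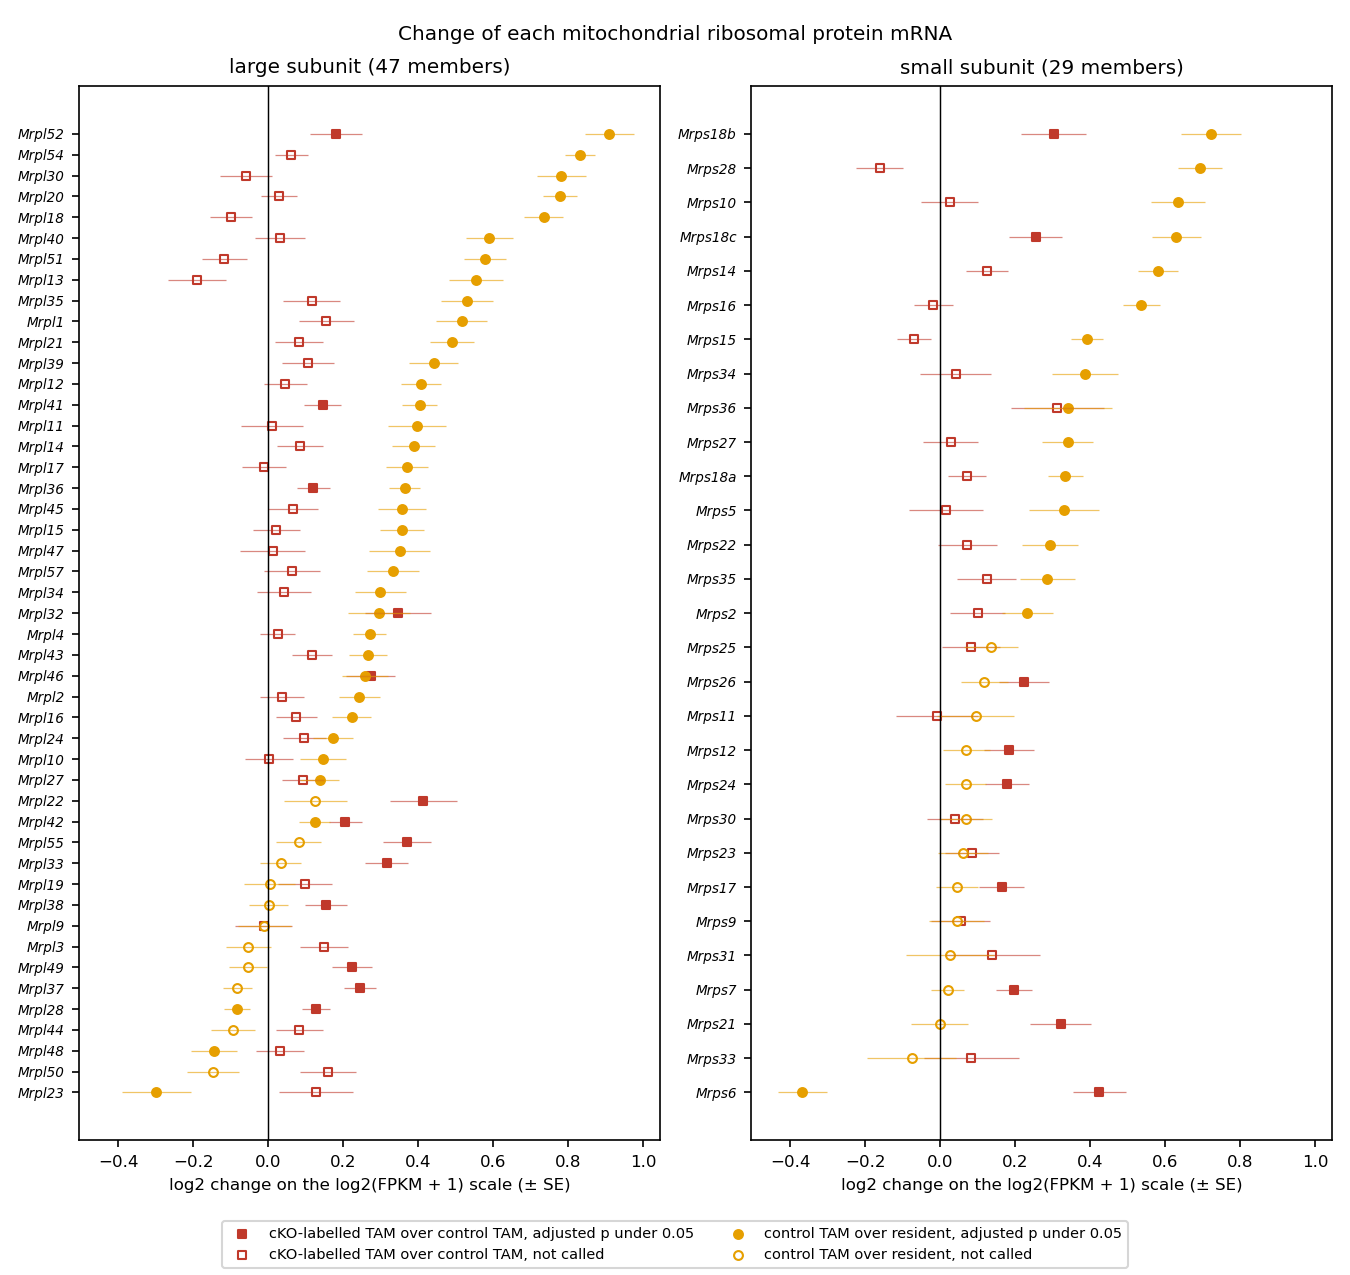
Log2 change of each member on the log2(FPKM + 1) scale, with its standard error, for cKO-labelled TAM over control TAM (red squares) and control TAM over resident macrophages (orange circles); filled symbols passed an adjusted p of 0.05. The orange symbols reach from -0.37 for Mrps6 to 0.91 for Mrpl52, while all red symbols lie between -0.19 and 0.42.

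Sites for nuclear respiratory factor 1 (NRF1) and for ETS factors such as GABPA are known features of nuclear genes for mitochondrial proteins. Promoters of 6 members are therefore shown. They were chosen, with their motifs known, among members with the largest changes in a comparison or with changes in opposite directions. Other members with large changes, such as Mrpl20, Mrpl30, Mrpl18 and Mrpl55, are not shown, so these 6 do not stand for the rest. RefSeq promoters were matched for 67 members (73 promoters of 300 bases). Windows of 200 bases, from 170 before to 30 after the start, are given 5′ to 3′ on the gene's strand in GRCm38.p6, and capitals mark an NRF1, ETS or E-box motif. The windows are chr14:54426739-54426938 (plus strand) for Mrpl52, which had the largest rise in control TAM over resident macrophages, chr13:14613008-14613207 (minus strand) for Mrpl32, chr11:58171494-58171693 (plus strand) for Mrpl22, chr5:100798589-100798788 (plus strand) for Mrps18c, chr17:35916411-35916610 (minus strand) for Mrps18b, the largest rise of the small subunit, and chr16:92058166-92058365 (plus strand) for Mrps6, which was lower in control TAM and higher in cKO-labelled TAM.
Mrpl52: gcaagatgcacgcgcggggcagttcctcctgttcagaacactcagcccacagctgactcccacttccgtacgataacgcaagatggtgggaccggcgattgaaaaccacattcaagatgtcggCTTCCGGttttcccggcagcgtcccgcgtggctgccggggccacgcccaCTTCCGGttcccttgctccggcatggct
Mrpl32: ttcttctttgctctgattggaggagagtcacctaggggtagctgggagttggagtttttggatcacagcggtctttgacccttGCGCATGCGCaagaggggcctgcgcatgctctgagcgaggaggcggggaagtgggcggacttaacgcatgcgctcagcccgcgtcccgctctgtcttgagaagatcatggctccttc
Mrpl22: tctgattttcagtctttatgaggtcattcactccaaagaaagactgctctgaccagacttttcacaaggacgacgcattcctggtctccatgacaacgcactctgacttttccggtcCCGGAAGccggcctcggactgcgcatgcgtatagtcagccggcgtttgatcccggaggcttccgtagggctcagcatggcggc
Mrps18c: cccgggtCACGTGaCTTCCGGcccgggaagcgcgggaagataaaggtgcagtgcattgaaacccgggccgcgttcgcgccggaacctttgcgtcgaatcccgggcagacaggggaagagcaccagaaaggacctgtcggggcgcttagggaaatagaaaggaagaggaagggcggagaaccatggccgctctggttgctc
Mrps18b: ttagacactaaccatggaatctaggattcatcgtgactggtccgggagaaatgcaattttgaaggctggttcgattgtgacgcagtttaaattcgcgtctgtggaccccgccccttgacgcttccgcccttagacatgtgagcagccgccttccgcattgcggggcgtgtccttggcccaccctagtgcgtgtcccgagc
Mrps6: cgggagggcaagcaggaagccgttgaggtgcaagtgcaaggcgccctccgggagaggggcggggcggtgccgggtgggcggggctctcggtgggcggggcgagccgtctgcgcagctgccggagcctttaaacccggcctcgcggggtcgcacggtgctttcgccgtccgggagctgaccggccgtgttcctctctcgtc
Mrpl52 held a pair of ETS motifs, Mrpl32 held an NRF1 motif, Mrpl22 held an ETS motif, and Mrps18c held an E-box beside an ETS motif. None of the motifs searched was found in the Mrps18b and Mrps6 windows. Outside the windows but within the promoters of 300 bases, Mrps18b held an ETS motif and Mrpl32 a motif of the factor YY1.

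Motifs were searched on both strands. The ETS motif (CCGGAAG) was in 32.9% of the members' promoters, in 18.1% of those of all genes tested and in 8.86% of all 32851 promoters. The NRF1 motif (GCGCA, any base, then GCGC) was in 17.8%, 10.2% and 4.60% of the same sets, and the YY1 motif (AAGATGGC) in 16.4%, 4.66% and 2.75%. The MYC E-box (CACGTG) was in 9.59% of the members' promoters and in 10.0% of those of all genes tested. The motif of NRF1 was in 21.7% of large and 11.1% of small subunit promoters, and that of ETS factors in 28.3% and 40.7%. These shares describe letters in a window and no test was made of them.

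Of the large subunit, Mrpl52, a protein with no bacterial counterpart, rose most in control TAM over resident macrophages. It had 36.2, 36.2 and 39.4 FPKM in control TAM, against 20.96, 19.0, 20.5 and 17.2 FPKM in resident libraries. All control TAM libraries lay well above all resident ones, and the log2 change was 0.91 ± 0.06 (SE, limma adjusted p = 2.22e-09). Mrpl54, also specific to mitochondria, was at 73.4, 71.8 and 71.7 FPKM in control TAM and at 41.8, 40.6, 38.7 and 39.5 FPKM in resident libraries, a log2 change of 0.83 ± 0.04 (adjusted p = 2.31e-11). Mrpl20, whose bacterial homologue acts early in the assembly of the large subunit, was at 71.1, 68.3 and 68.4 FPKM in control TAM, against 41.0, 40.2, 37.0 and 41.8 FPKM in resident libraries. Neither gene's groups overlapped. Mrpl30 (log2 change 0.78) and Mrpl18 (0.73), a relative of the bacterial protein that binds 5S ribosomal RNA, completed the 5 largest rises of the large subunit. Of the exonic bases of Mrpl18, 10.1% overlap Tcp1 on the opposite strand. Tcp1 averaged 57.0 FPKM in control TAM and 33.2 FPKM in resident macrophages (log2 change 0.76). The part of its reads in the Mrpl18 change was not tested. Mrpl12, which forms the flexible stalk that recruits translation factors, averaged 28.7 ± 1.18 FPKM in control TAM and 21.4 ± 1.497 FPKM in resident macrophages. Mrpl57, specific to mitochondria, averaged 15.5 ± 0.846 and 12.1 ± 0.228 FPKM in the same groups, and both genes were called higher.

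Only 3 large subunit members were lower in control TAM than in resident macrophages, and all 3 calls depended on single libraries or on scaling. Mrpl23, whose bacterial homologue sits at the exit of the peptide tunnel, had 1.28, 1.46 and 1.79 FPKM in control TAM, against 2.03, 2.01, 2.49 and 1.81 FPKM in resident libraries. The groups lay next to each other without overlap, with a log2 change of -0.30 ± 0.09 (adjusted p = 0.00801), and the call was lost without control TAM replicate 1 (adjusted p = 0.0512). Mrpl28 was at 90.3, 92.2 and 92.2 FPKM in control TAM and at 98.1, 99.4, 96.1 and 94.3 FPKM in resident libraries, a log2 change of -0.08 (adjusted p = 0.0421). Mrpl48 had a log2 change of -0.14 (adjusted p = 0.0402). With libraries scaled to a common total, the log2 change of Mrpl28 was 0.13 and that of Mrpl48 was 0.04. Each of these 2 calls was lost without any 1 of resident replicates 1, 2 and 3 and control TAM replicates 1 and 3, with adjusted p between 0.0527 and 0.143. That of Mrpl28 was also lost without control TAM replicate 2 (0.0663), and that of Mrpl48 without cKO-labelled TAM replicate 3 (0.0514).

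Of the small subunit, the Mrps18 paralogues differed in size of change. Mrps18c occupies the place of bacterial S18, Mrps18b is an added protein of the small subunit, and structures place Mrps18a in the large subunit. Mrps18b was at 15.7, 14.4 and 12.1 FPKM in control TAM, against 8.25, 7.10, 9.04 and 8.01 FPKM in resident libraries (log2 change 0.72 ± 0.08, adjusted p = 5.86e-07). Mrps18c was at 34.7, 34.0 and 36.4 FPKM in control TAM, against 24.2, 23.5, 21.2 and 20.3 FPKM in resident libraries (0.63 ± 0.07, adjusted p = 2.67e-07). Mrps18a was at 26.3, 26.1 and 26.7 FPKM in control TAM, against 22.2, 19.3, 20.6 and 20.7 FPKM in resident libraries (0.33 ± 0.05, adjusted p = 8.86e-06). All 3 were higher in every control TAM library than in any resident one, and the difference between the paralogues was not tested. Of the exonic bases of Mrps18b and Mrps18c, 30.5% and 23.2% overlap another gene. Mrps30, which structures also place in the large subunit, was not called (20.97 ± 0.268 FPKM in control TAM and 20.03 ± 2.03 FPKM in resident macrophages, adjusted p = 0.386).

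Mrps6 was the only small subunit member called lower in control TAM. Its bacterial homologue pairs with S18 on the ribosome. It had 13.8, 15.9 and 14.96 FPKM in control TAM, against 18.6, 18.3, 21.2 and 19.7 FPKM in resident libraries, a log2 change of -0.37 ± 0.07 (adjusted p = 9.92e-05). In cKO-labelled TAM it had 18.7, 21.9 and 20.3 FPKM, all above the control TAM libraries (log2 change 0.42 ± 0.07, adjusted p = 0.000216). The cKO-labelled and resident libraries overlapped, and Mrps6 did not pass the threshold between them (0.06 ± 0.07, adjusted p = 0.431). The sign of the change held in both comparisons under every scaling run. Of the exonic bases of Mrps6, 30.3% overlap other genes on the same strand: 19.9% overlap Gm49711, whose level was not analysed here, and 10.4% overlap Slc5a3, which averaged 0.268, 0.240 and 0.265 FPKM in cKO-labelled TAM, control TAM and resident macrophages.

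**Figure D2:**
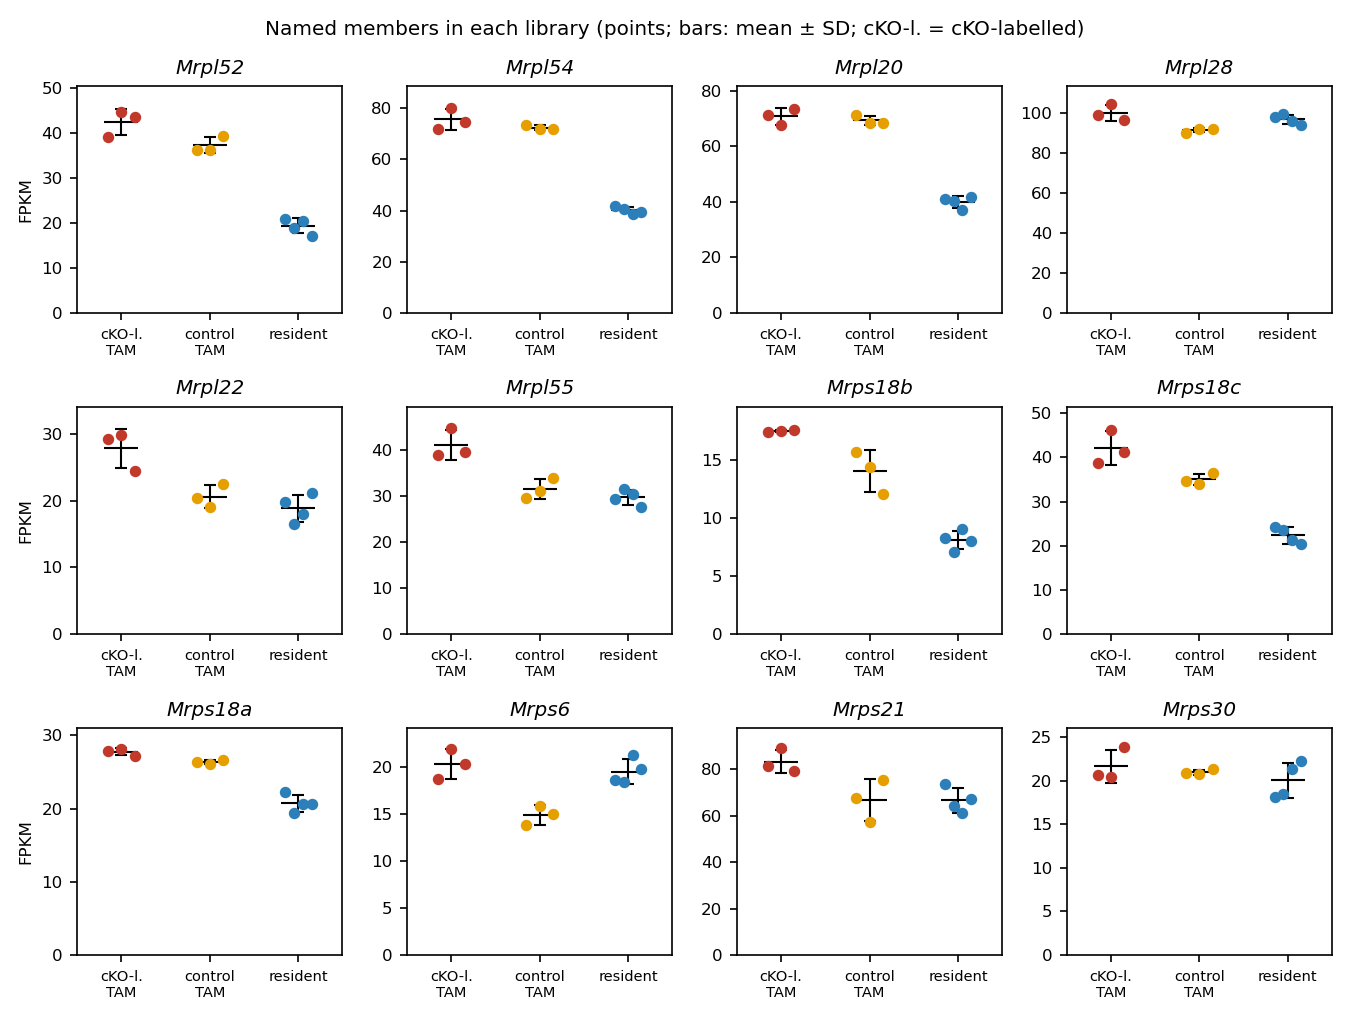
FPKM of 12 members in each library (points) with the mean and SD of each group (bars). In Mrpl52, Mrpl54 and Mrpl20 both TAM groups lie above the resident libraries, in Mrpl22, Mrpl55 and Mrps21 the cKO-labelled libraries lie above both other groups, and in Mrps6 the control TAM libraries lie below both.

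Between the TAM groups the changes were smaller and fewer. Of the 47 large subunit members, 13 were higher in cKO-labelled TAM than in control TAM and 0 were lower. Of the 29 small subunit members, 9 were higher and 0 were lower. The share called higher was 27.7% in the large and 31.0% in the small subunit, while among all genes tested 20.5% were higher and 19.1% were lower. With median-of-ratios scaling and with quantile normalization, 19.1% of the large subunit was higher, near the 18.7% of all genes, while 24.1% and 27.6% of the small subunit were. The median log2 change was 0.09 in the large and 0.08 in the small subunit, against 0.01 over all genes, and no member reached 1.5-fold, a limit that 2.72% of all genes passed upward and 1.59% downward. Without cKO-labelled TAM replicate 2, 8 large and 4 small subunit members were higher and Mrps28 was lower, and without control TAM replicate 3, 5 small subunit members were higher and Mrps28 was lower. Scaling to a common total left 8 large and 5 small subunit members higher and made 3 and 2 lower (Mrpl13, Mrpl18, Mrpl51, Mrps15 and Mrps28). Under that scaling the median of all genes was -0.05, and the share of all calls that were higher was 32.9%, against 51.8% as deposited. Relative to all genes, the medians were then 0.06 and 0.07, against 0.07 in each subunit as deposited.

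The largest rises in cKO-labelled over control TAM were in Mrps6, described above, Mrpl22, Mrpl55, Mrpl32 and Mrps21. Mrpl22, whose bacterial homologue lines the peptide exit tunnel, had 29.3, 29.8 and 24.4 FPKM in cKO-labelled TAM, against 20.3, 19.0 and 22.5 FPKM in control TAM (log2 change 0.41 ± 0.09, adjusted p = 0.00181). Mrpl55, specific to mitochondria, had 38.7, 44.7 and 39.4 FPKM in cKO-labelled TAM, against 29.5, 31.0 and 33.8 FPKM in control TAM (0.37 ± 0.06, adjusted p = 0.000329). In both genes every cKO-labelled library was above every control TAM library, while control TAM and resident libraries overlapped. Mrps21, homologous to bacterial S21, had 81.5, 89.0 and 79.4 FPKM in cKO-labelled TAM, against a wide 67.7, 57.3 and 75.5 FPKM in control TAM (0.32 ± 0.08, adjusted p = 0.00598). Mrpl33 (log2 change 0.32, adjusted p = 0.000497) and Mrpl37 (0.25, adjusted p = 0.000273) likewise rose without a call between control TAM and resident macrophages.

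A few members rose at both steps. Mrpl32, which is cut by the m-AAA protease after import and then joins the large subunit, had 20.8, 22.4 and 26.3 FPKM in cKO-labelled TAM, 17.8, 17.2 and 18.8 FPKM in control TAM and 12.5, 15.98, 13.8 and 15.7 FPKM in resident libraries. The 3 groups did not overlap, and the log2 change was 0.35 (adjusted p = 0.00607) in cKO-labelled over control TAM and 0.30 (adjusted p = 0.00424) in control TAM over resident macrophages. Mrpl42, the most abundant member, had 126, 140 and 137 FPKM in cKO-labelled TAM, 114, 122 and 112 FPKM in control TAM and 109, 105, 106 and 105 FPKM in resident libraries, again without overlap. Its call in control TAM over resident macrophages was lost without control TAM replicate 2 (adjusted p = 0.0851) and with quantile normalization (0.0833). The other members called higher in both comparisons were Mrpl36, Mrpl41, Mrpl46, Mrpl52, Mrps18b and Mrps18c. The comparisons share the control TAM libraries, so such a count is a description only. For cKO-labelled over control TAM, the Mrpl52 groups overlapped and its call (log2 change 0.18, adjusted p = 0.0482) was lost with pseudocounts of 0.1 and 0.5, no filter, no variance trend and every other scaling, and without any 1 of cKO-labelled TAM replicates 2 and 3, control TAM replicates 1 and 2 and resident replicate 2, with adjusted p up to 0.221. Those of Mrps18b and Mrps18c were lost without control TAM replicate 3 (adjusted p = 0.0634) and without cKO-labelled TAM replicate 2 (0.0601). That of Mrpl28 (log2 change 0.13, adjusted p = 0.0126) was lost without cKO-labelled TAM replicate 2 (0.0773), with libraries scaled to a common total (0.281) and with no variance trend (0.0512).

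Mrps36, now assigned to the α-ketoglutarate dehydrogenase complex rather than to the ribosome, had 5.84, 6.14 and 6.40 FPKM in cKO-labelled TAM, 5.65, 4.37 and 4.27 FPKM in control TAM and 3.17, 4.61, 3.78 and 2.75 FPKM in resident libraries. The control TAM and resident libraries overlapped, and the log2 change between them was 0.34 (adjusted p = 0.0149), a call that ended when resident replicate 4 (0.0516) or control TAM replicate 1 (0.101) was left out. In cKO-labelled over control TAM it was 0.31 (adjusted p = 0.0587), which passed on leaving out resident replicate 2 (0.0268), resident replicate 4 (0.0364) or control TAM replicate 1 (0.0231), and in a fit of the TAM groups alone (0.0196). Apart from Mrpl23, described above as lower, the least abundant members were higher: Mrpl47 averaged 3.05 ± 0.107 FPKM in control TAM and 2.19 ± 0.267 FPKM in resident macrophages, Mrps22 averaged 3.97 ± 0.309 and 3.05 ± 0.191 FPKM, and Mrps5 averaged 3.94 ± 0.463 and 2.93 ± 0.443 FPKM. All 3 were called higher in control TAM, although the Mrps5 libraries overlapped, and none was called between the TAM groups. Of the exonic bases of Mrpl47, 24.2% overlap Actl6a and Ndufb5 on the opposite strand. Both were also called higher in control TAM, at 37.8 and 21.2 FPKM, against 25.3 and 14.6 FPKM in resident macrophages. The part of their reads in the Mrpl47 call was not tested.

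Cells of the cKO-labelled group were also compared with resident macrophages. Here 39 of 47 large and 22 of 29 small subunit members were higher and 0 were lower, against 40.2% of all genes higher and 37.2% lower. The median log2 change was 0.38 in the large and 0.33 in the small subunit, against 0.02 over all genes. At least 1.5-fold higher on the log2(FPKM + 1) scale were 9 large and 5 small subunit members, against 17.8% of all genes. No member was 1.5-fold lower, against 15.1% of all genes. Mrpl52 had 39.1, 44.5 and 43.5 FPKM in cKO-labelled TAM, against 20.96, 19.0, 20.5 and 17.2 FPKM in resident libraries, a log2 change of 1.09 ± 0.06 (adjusted p = 2.4e-10). Mrps18b, at 17.4, 17.5 and 17.6 FPKM in cKO-labelled TAM, had a log2 change of 1.03 ± 0.08 over resident macrophages (adjusted p = 8.79e-09). Both exceeded every resident library by a wide margin. The share of all calls that were higher was 61.6% after scaling to a common total, against 52.0% as deposited, and the median of all genes was then 0.13.

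The subunits kept similar proportions in the 3 groups. The summed FPKM of the large subunit was 1457, 1540 and 1497 in cKO-labelled TAM, 1370, 1393 and 1393 in control TAM and 1146, 1108, 1121 and 1116 in resident libraries. That of the small subunit was 671, 695 and 668 in cKO-labelled TAM, 628, 607 and 632 in control TAM and 555, 513, 511 and 519 in resident libraries. As deposited, no group overlapped another in either sum. With a common total the large sums of the TAM groups overlapped, at 1505 to 1554 in cKO-labelled TAM and 1487 to 1506 in control TAM, and the small sums were 686 to 701 and 656 to 681 in the same groups. The ratio of the large to the small sum was 2.21 ± 0.035 in cKO-labelled TAM, 2.23 ± 0.059 in control TAM and 2.14 ± 0.055 in resident macrophages (SD), and its ranges overlapped between all groups. With Mrps18a and Mrps30 counted in the large subunit and Mrps36 left out, the ratio was 2.49, 2.51 and 2.43 in the same groups.

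**Figure D3:**
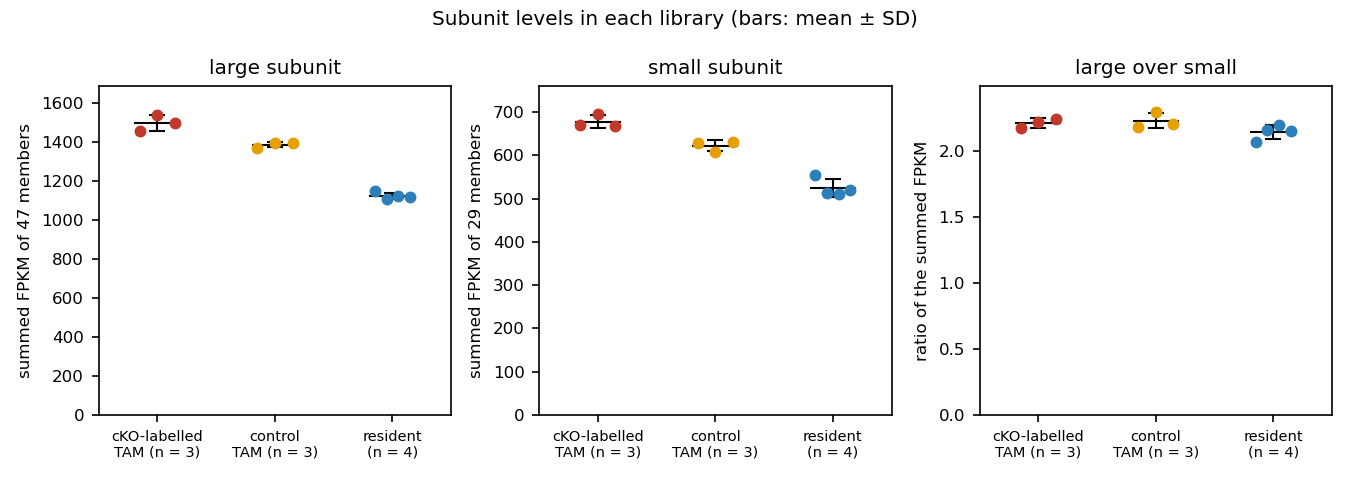
Summed FPKM of the large and of the small subunit and their ratio in each library (points), with the mean and SD of each group (bars). As deposited, both sums are highest in the cKO-labelled libraries and lowest in the resident ones (with a common total the large sums of the TAM groups overlap), while the ratio lies between 2.06 and 2.29 in all 10 libraries.

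Of 5 genes of mitochondrial ribosomal proteins that carry other names, 4 were higher and 0 lower in control TAM over resident macrophages. The shares of all genes were 39.0% and 38.1%. With median-of-ratios scaling and with quantile normalization, 3 of the 5 were higher and 0 lower. Dap3, a GTP-binding protein of the small subunit, averaged 14.3 ± 0.616 FPKM in control TAM and 7.47 ± 0.395 FPKM in resident macrophages (log2 change 0.85, adjusted p = 7.62e-10). Chchd1 averaged 58.7 ± 1.61 FPKM in cKO-labelled TAM, 49.97 ± 2.09 FPKM in control TAM and 39.0 ± 1.90 FPKM in resident macrophages. It was the 1 gene of the list called higher in cKO-labelled over control TAM (0.23, adjusted p = 0.00154). That 1 of 5 was near the 20.5% of all genes called higher in this comparison.

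Genes that assemble the ribosome moved in both directions. In control TAM over resident macrophages, 5 of 27 assembly genes were higher and 10 were lower. Of all genes 39.0% were higher, a larger share than of the assembly genes, and 38.1% were lower, a near share. The median log2 change of the assembly genes was -0.13, and with a common total it was 0.06, with 10 higher and 7 lower. In cKO-labelled over control TAM, 6 were higher and 3 lower (median 0.05), and with a common total 5 were higher and 4 lower (-0.02). As deposited, 20.5% of all genes were higher and 19.1% lower in that comparison. Rbfa, a factor that matures the small subunit RNA, averaged 59.2 ± 3.38 FPKM in cKO-labelled TAM, 46.7 ± 2.19 FPKM in control TAM and 76.3 ± 3.98 FPKM in resident macrophages. Its log2 change was 0.34 (adjusted p = 0.000131) in cKO-labelled over control TAM and -0.70 (adjusted p = 2.1e-09) in control TAM over resident macrophages. Rpusd4, a pseudouridine synthase, went the same ways, by 0.37 and -0.75, and the helicase Dhx30 had a log2 change of -0.51 in control TAM over resident macrophages. Of 10 genes of mitochondrial DNA replication and transcription, 1 was higher and 5 were lower there, against 39.0% and 38.1% of all genes. Under every scaling run 5 were lower, while 0 were higher with median-of-ratios scaling and 3 with a common total. Polg, the catalytic subunit of the mitochondrial DNA polymerase, averaged 8.22 ± 0.559 FPKM in control TAM and 13.3 ± 0.703 FPKM in resident macrophages (-0.64, adjusted p = 7.85e-08), its accessory subunit Polg2 had a log2 change of -0.80, and Polrmt, the mitochondrial RNA polymerase, one of -0.58.

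Translation factors and tRNA charging enzymes had members called in both directions, at shares near or below those of all genes in control TAM over resident macrophages (39.0% higher and 38.1% lower). Of 15 factors, 6 were higher and 3 lower there, among them the elongation factors Gfm1 (log2 change 0.64, adjusted p = 1.18e-07) and Tsfm (0.57, adjusted p = 1.75e-06), both higher, and the methionine aminopeptidase Metap1d (-1.07, adjusted p = 4.46e-10). In cKO-labelled over control TAM 3 were higher, including Taco1 (0.40, adjusted p = 0.00404), an activator of cytochrome oxidase subunit translation, and 3 were lower. Of 19 tested genes that charge mitochondrial tRNAs, 5 were higher and 6 lower in control TAM over resident macrophages, and 8 were higher and 4 lower with a common total. Qrsl1 and Gatc, subunits of the same glutaminyl-tRNA amidotransferase, were called in opposite directions (0.76 and -0.69). In cKO-labelled over control TAM 0 were higher and 4 lower, Iars2 the most (-0.54, adjusted p = 4.82e-06). Among all genes tested, 20.5% were higher and 19.1% lower in that comparison. The factors called higher or lower and the charging genes called lower were near these shares.

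Nuclear genes of oxidative phosphorylation and cytosolic ribosomal proteins were set beside the members. In control TAM over resident macrophages, 68 of 78 oxidative phosphorylation genes were higher and 4 lower (median log2 change 0.41). Of 78 cytosolic ribosomal protein genes, 56 were higher and 2 lower (0.28), against 39.0% higher and 38.1% lower over all genes tested. In cKO-labelled over control TAM the counts were 28 higher and 4 lower (0.09) for oxidative phosphorylation and 8 higher and 3 lower (0.02) for the cytosolic ribosome. Over all genes tested, 20.5% were higher and 19.1% lower there, so the cytosolic ribosome was below both shares. With a common total the counts were 12 higher and 12 lower (0.02) for oxidative phosphorylation. For the cytosolic ribosome they were 5 higher and 9 lower (-0.05), against 13.4% higher and 27.4% lower over all genes. A smaller share of 9 regulators of mitochondrial biogenesis than of all genes was called in control TAM over resident macrophages as deposited. Myc was the only one called, against 4 with a common total (51.8% of all genes were higher under that scaling). It was at 30.8 ± 1.60 FPKM in control TAM and 16.8 ± 0.640 FPKM in resident macrophages (0.84, adjusted p = 1.75e-10). Myc was at 28.8 ± 0.914 FPKM in cKO-labelled TAM and was not called against control TAM as deposited (-0.09, adjusted p = 0.174), while with a common total it was lower (-0.17, adjusted p = 0.0177). As deposited, Gabpa (-0.22, adjusted p = 0.0203), a subunit of the ETS factor GABP, was lower in cKO-labelled TAM than in control TAM, and it was lower under every scaling run. Esrra (0.25, adjusted p = 0.0468) and Yy1 (0.22, adjusted p = 0.0331) were higher, but with a common total neither passed (adjusted p = 0.129 for Esrra and 0.10005 for Yy1), and Esrra passed under no other scaling.

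**Figure D4:**
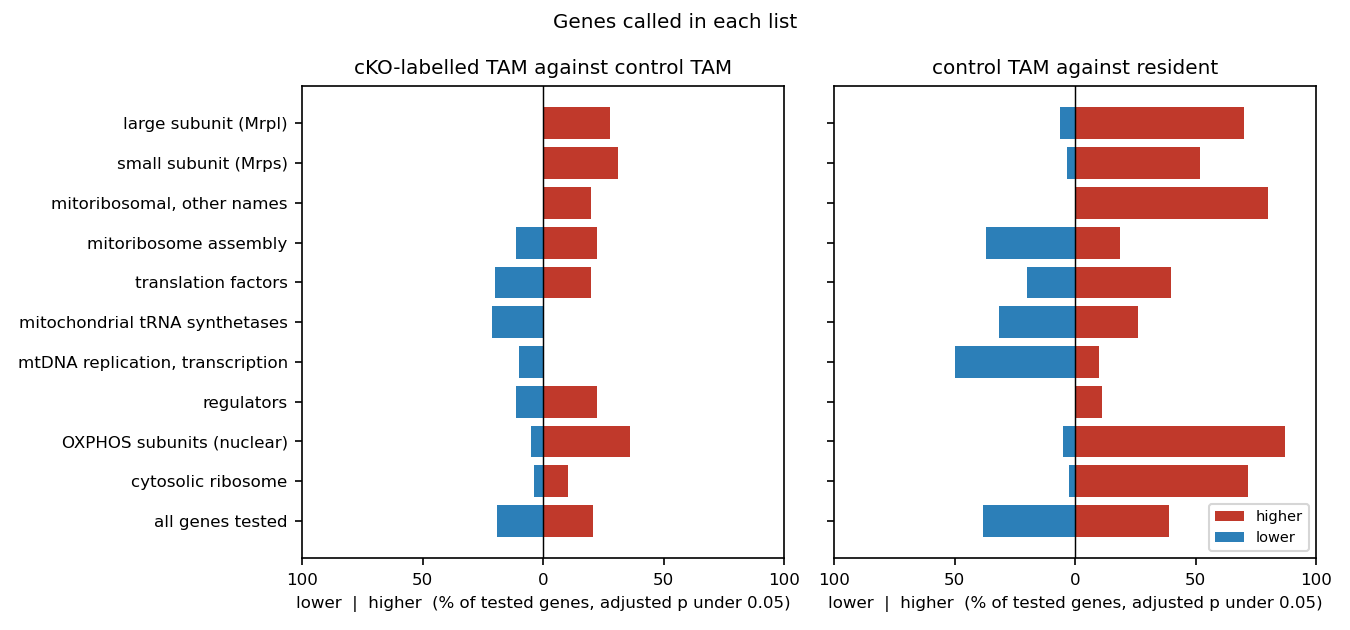
Share of the tested genes of each list called higher (red) or lower (blue) in cKO-labelled TAM against control TAM (left) and in control TAM against resident macrophages (right), at an adjusted p under 0.05. The bottom row gives all 11127 genes, of which 20.5% were higher and 19.1% lower on the left and 39.0% and 38.1% on the right.

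Cell cycle genes and markers of other cells also differed between the groups. Of 18 cell cycle genes, 17 were higher in control TAM, against resident macrophages, with sums of 286 to 288 and 133 to 144 FPKM. Against control TAM, 17 were lower in cKO-labelled TAM, where the sum was 203 to 206 FPKM. Of all genes, 39.0% were higher in the first of these comparisons and 19.1% lower in the second. Between the TAM groups, 15 of 15 tested acinar markers were higher in cKO-labelled TAM (sum 376 to 388 FPKM) than in control TAM (95.4 to 100 FPKM), as were 4 of 5 B and plasma cell markers (242 to 246 FPKM, against 87.2 to 96.1 FPKM). Of 8 neutrophil markers 5 were higher and 1 lower, with sums of 1489 to 1654 FPKM in cKO-labelled TAM and 1245 to 1272 FPKM in control TAM. Of 5 tested fibroblast markers 2 were higher and 2 lower. All 7 summed to 121 to 125 FPKM in cKO-labelled TAM, 161 to 164 in control TAM and 37.4 to 41.0 in resident libraries. Of 6 tested T and NK cell markers 3 were higher and 1 lower. Over all genes tested, 20.5% were higher and 19.1% lower between the TAM groups. Of 10 macrophage markers 2 were higher, near that share, and 6 lower. Their sums were 14318 to 14734 FPKM in cKO-labelled TAM and 22920 to 23066 FPKM in control TAM. Lyz2, the gene into which this Cre is inserted, carried most of both sums (on average 11460 and 19904 FPKM). The part of these cell cycle and marker genes in the changes of the members was not tested.

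**Figure D5:**
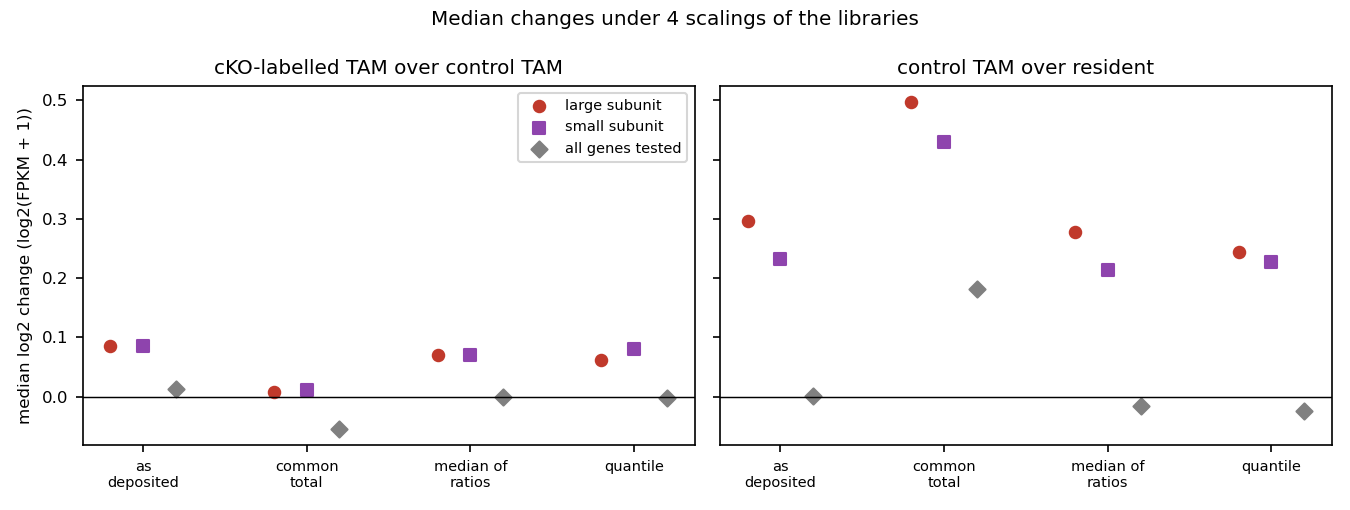
Median log2 change of the large subunit (circles), the small subunit (squares) and all genes tested (diamonds) under 4 scalings of the libraries, for cKO-labelled TAM over control TAM (left) and control TAM over resident macrophages (right). Both subunits lie above all genes under each scaling, by 0.06 to 0.08 on the left and by 0.23 to 0.32 on the right.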

How the data were processed

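RNA of sorted mouse macrophages was sequenced in 10 libraries, given in 1 table. Per the labels' protocols, 2 extraction kits were in use, amplification was by SMART-Seq v4, and libraries were prepared with Nextera XT, a method that does not record strand. The deposited table holds FPKM (fragments scaled by gene length and library size), calculated by the authors. Per the submitters' processing notes, STAR and edgeR were used, with builds given as mm10 and GRCm38. How gene lengths, scaling and gene filter were set is not given in the sources used here. Columns were matched to samples by title.

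A gene was tested where 3 or more of the 10 libraries had 1 FPKM or more (11127 of 12535 genes). The fit to log2(FPKM + 1) was made with limma 3.58.1 (R 4.3.3), with 3 group means, moderated variances with a trend on mean expression and 7 residual degrees of freedom. Adjusted p are Benjamini-Hochberg values over all 11127 genes, with a threshold of 0.05. A log2 change on the log2(FPKM + 1) scale understates the change of low genes. The fit was tested on simulated data. Counting in whole reads was checked with the longest GENCODE M21 transcript as gene length: 85.7% to 87.0% of low values in a library came out whole within 0.05. No count test was run, because FPKM are not counts.

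The members, the lists and the tests were chosen with earlier results of these data known. Members are named by size of change, level, a direction opposite to that of their subunit, opposite calls in consecutive comparisons, or a name that differs from their place in the ribosome, and up to 3 genes of every other list by size of change. Members outside this rule that are named with values (Mrpl13, Mrpl33, Mrpl37, Mrpl46, Mrps11 and Mrps28) and the printed promoters were chosen after their values, for promoters also their motifs, were seen. Promoter sequences and their coordinates are from RefSeq (GRCm38.p6). Alternatives were other pseudocounts, filters and scalings, only the 2 groups compared, no variance trend, the replicate number as a block, each library left out, a 1.5-fold limit and other subunit assignments.

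Libraries with the same replicate number did not deviate together: the correlations of their deviations from the group means were -0.0612 to 0.111, and not every pair was over 0.1. The numbers were therefore not treated as pairs.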

Additional observations from a re-analysis of the deposited data

How the results depend on the processing

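The values below are given for the large and then the small subunit. Control TAM against resident macrophages: with a common total, 0 large members were lower, 26 small members were higher and the medians were 0.50 and 0.43. The large median was 0.24 with quantile normalization, and 5 large members were lower with median-of-ratios scaling. The small median was 0.14 with an FPKM of at least 5 and 0.18 with Mrps18a and Mrps30 moved and Mrps36 left out. At 1.5-fold on the log2(FPKM + 1) scale, 6 and 4 members were higher and 0 and 0 lower. In this comparison, scaling to a common total turned the log2 changes of Mrpl28, Mrpl48 and Mrps21 to 0.13, 0.039 and 0.21. Without 1 library, 31 to 33 large members were higher and 1 to 3 lower (median 0.26 to 0.30), and 14 to 17 small members were higher and 1 lower (0.19 to 0.28).

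cKO-labelled against control TAM: with a common total, 8 and 5 were higher, 3 and 2 lower, and the medians were 0.0083 and 0.012. No variance trend left 8 large members higher. Mrps28 was the 1 small member lower with an FPKM of at least 5, quantile normalization, median-of-ratios scaling and the replicate block. Mrpl13 was the 1 large member lower with median-of-ratios scaling and with only the 2 groups compared. At 1.5-fold, 0 and 0 were higher. Without 1 library, 8 to 13 large members were higher and 0 to 1 lower (median 0.062 to 0.12), and 4 to 10 small members were higher and 0 to 1 lower (0.08 to 0.11).

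cKO-labelled TAM against resident macrophages: the medians were 0.50 and 0.45 with a common total, and the large median was 0.42 with a pseudocount of 0.1. With quantile normalization, median-of-ratios scaling or no variance trend 1 large member was lower (Mrpl23 in the first, Mrpl48 in the others). At 1.5-fold on the log2(FPKM + 1) scale, 9 and 5 were higher. Without 1 library, 38 to 40 and 21 to 24 were higher.

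The ratio of the subunits was 2.49 in cKO-labelled TAM, 2.51 in control TAM and 2.43 in resident macrophages with Mrps18a and Mrps30 moved and Mrps36 left out, and 1.78, 1.80 and 1.74 with the genes of other names added. Without 1 library it was 2.19 to 2.23, 2.19 to 2.25 and 2.12 to 2.17. With 1 more base (CCGGAAGT), the ETS motif was in 16.4% of the members' promoters, in 8.41% of those of all genes tested and in 3.89% of all promoters. Among the named members, the replicate block ended 1 call (Mrps36 in control TAM over resident macrophages, adjusted p = 0.0675) and added 1 (Mrps30 in cKO-labelled TAM over resident macrophages, 0.0186). The cause of these shifts was not tested. FPKM are relative to each library, so no scaling used here gives absolute amounts, and 3 or 4 libraries a group limit what small changes can be called.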

Other observations

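The calls of 1 pair of neighbouring members differed. Mrpl46 and Mrps11 overlap in their annotated exons. Mrpl46 averaged 30.3 ± 0.925 FPKM in cKO-labelled TAM, 24.9 ± 1.64 FPKM in control TAM and 20.7 ± 1.73 FPKM in resident macrophages, and was called higher at both steps (limma adjusted p = 0.00404 in cKO-labelled over control TAM and 0.00127 in control TAM over resident macrophages). Mrps11 averaged 19.3 ± 2.19, 19.5 ± 2.64 and 18.2 ± 2.66 FPKM in the same groups and was called at neither step. The difference between the genes was not tested.

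Members numbered like bacterial ribosomal proteins were set beside those with higher numbers, most of which have no bacterial counterpart; this split was chosen after the values were seen. In control TAM over resident macrophages, 21 of 28 large subunit members with bacterial numbers and 12 of 19 with higher numbers were called higher, as were 9 of 16 and 6 of 13 in the small subunit, against 39.0% of all genes. In cKO-labelled over control TAM the counts were 5 of 28 and 8 of 19 in the large subunit, and 7 of 16 and 2 of 13 in the small subunit, against 20.5% of all genes. No difference between these parts was tested.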
